A study of Mus musculus with 2 samples.

Results

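Among the type 1 conventional dendritic cells (cDC1) of the mouse lung, 586 cells carried at least 2 UMIs (unique molecular identifiers, each standing for 1 captured transcript) summed over Epcam, Cldn1, Cd207 and Plet1. They are called programme cells here. They were chosen by measured values, after barcodes under 500 genes or 1000 UMIs, or over 10% mitochondrial UMIs, had been set aside. Each also had at least 2 UMIs of Xcr1 and Clec9a together, 0 of Ccr7, which marks mature dendritic cells (DC), and 0 of Mki67 and Top2a, which mark dividing cells. The same gate without the 4 genes held 1366 cDC1, of 12968 barcodes past the quality filters and 14710 in all. Of those cDC1, 316 held 1 UMI of the 4 genes, just outside the threshold, and 464 held 0. The 464 are called no-programme cells and serve as the comparison.

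Cells were sorted from lungs of mice carrying Zbtb46-Cre and a Rosa26-YFP reporter, in which a cell that has expressed Zbtb46, and its descendants, stay YFP+. Live CD45.2+ YFP+ cells came from neonatal mice of 7 days and adult mice of 8 weeks, with 2 pools per age and at least 5 mice in each pool. The labels name no treatment, and every group carried the same alleles. The 2 pools of an age were marked with separate hashtags and loaded together on a droplet chip, so age and loading channel cannot be told apart. The design asks how DC differ between the ages. The YFP label does not keep cDC1 alone, since cells with neutrophil, monocyte and natural killer (NK) markers were also in the files. The replicate is the pool (n = 2 per age), and p-values for age measure the spread between pools. Programme and no-programme cells are compared with the pool as a block. There, and for the interaction with age, p-values measure how the difference within a pool varies from pool to pool. Values for 4 pools are given in the order neonatal 1, neonatal 2, adult 1, adult 2.

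cDC1 take up material from dying cells and present it to CD8+ T cells, and they depend on the transcription factors Irf8 and Batf3. In the lung they line the airways and carry CD103, the integrin chain encoded by Itgae, which binds E-cadherin on epithelial cells. Epcam and Cldn1 encode an adhesion protein and a tight-junction claudin of epithelia, Cd207 encodes langerin, a lectin best known from Langerhans cells, and Plet1 encodes a membrane-anchored protein found on placental and epithelial progenitors.

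The promoters of the 4 programme genes are shown first, with those of Spint1 and F11r, which rose with the programme although they had no part in the rule. Each runs from 250 bases before to 50 bases from the RefSeq start, on the gene's own strand, in GRCm38.p6. They lie at chr17:87635729-87636028 (+) for Epcam, chr16:26371790-26372089 (-) for Cldn1, chr6:83677808-83678107 (-) for Cd207, chr9:50494275-50494574 (+) for Plet1, chr2:119237110-119237409 (+) for Spint1 and chr1:171437311-171437610 (+) for F11r. Capitals mark a match, on either strand, to the GC box GGGCGG, the E-box CAGGTG or the AP-1 motif TGANTCA.
Epcam: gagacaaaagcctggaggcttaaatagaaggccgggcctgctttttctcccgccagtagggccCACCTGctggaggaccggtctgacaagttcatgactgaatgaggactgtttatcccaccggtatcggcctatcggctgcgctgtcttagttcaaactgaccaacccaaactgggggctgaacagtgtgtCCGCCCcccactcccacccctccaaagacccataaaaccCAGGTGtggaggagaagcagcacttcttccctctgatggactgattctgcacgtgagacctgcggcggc
Cldn1: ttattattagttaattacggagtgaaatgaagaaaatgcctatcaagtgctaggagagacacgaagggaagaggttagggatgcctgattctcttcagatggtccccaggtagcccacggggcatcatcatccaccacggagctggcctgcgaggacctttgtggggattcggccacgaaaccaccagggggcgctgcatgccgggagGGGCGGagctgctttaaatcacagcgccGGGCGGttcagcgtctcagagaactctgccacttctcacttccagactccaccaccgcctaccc
Cd207: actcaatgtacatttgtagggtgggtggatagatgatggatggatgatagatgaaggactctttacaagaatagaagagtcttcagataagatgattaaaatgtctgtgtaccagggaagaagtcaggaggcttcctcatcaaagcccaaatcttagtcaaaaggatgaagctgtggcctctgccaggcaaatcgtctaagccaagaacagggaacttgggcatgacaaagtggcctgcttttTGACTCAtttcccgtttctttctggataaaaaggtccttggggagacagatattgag
Plet1: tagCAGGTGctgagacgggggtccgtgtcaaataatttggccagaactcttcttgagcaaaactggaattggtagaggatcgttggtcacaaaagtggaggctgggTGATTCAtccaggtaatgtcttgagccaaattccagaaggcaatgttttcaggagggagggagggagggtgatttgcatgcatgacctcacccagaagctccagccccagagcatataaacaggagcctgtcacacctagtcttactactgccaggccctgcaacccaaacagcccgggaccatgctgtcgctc
Spint1: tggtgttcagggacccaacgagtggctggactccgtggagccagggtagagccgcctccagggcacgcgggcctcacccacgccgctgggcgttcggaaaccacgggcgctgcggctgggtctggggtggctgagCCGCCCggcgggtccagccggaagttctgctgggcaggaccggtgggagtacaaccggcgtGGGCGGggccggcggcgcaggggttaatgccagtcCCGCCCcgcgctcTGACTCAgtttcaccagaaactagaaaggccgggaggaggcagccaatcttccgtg
F11r: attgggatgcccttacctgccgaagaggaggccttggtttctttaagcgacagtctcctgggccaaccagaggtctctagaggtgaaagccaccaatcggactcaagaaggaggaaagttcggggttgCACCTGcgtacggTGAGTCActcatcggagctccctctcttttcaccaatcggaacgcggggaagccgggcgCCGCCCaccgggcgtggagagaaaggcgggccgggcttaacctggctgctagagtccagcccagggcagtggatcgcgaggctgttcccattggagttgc

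An AP-1 motif stood in 4 of the 6, at 7 bases before the start in Cd207, 6 in Spint1, 109 in F11r and 144 in Plet1, and it is found in 7.81% of all 32851 RefSeq promoters of this length. Epcam and Cldn1 had no AP-1 motif but held 1 and 2 GC boxes, a motif present in 35.7% of promoters. The E-box was in Epcam, Plet1 and F11r, against 20.2% of promoters. The RUNX motif TGTGGT (16.8% of promoters), the SMAD palindrome GTCTAGAC (0.213%) and the PU.1 motif GAGGAAGT (3.20%) were in none of the 6 windows. The promoter of Cd207 was the poorest in G and C of the 6, at 43.3%, against 69.7% for Spint1 and a median of 52.7% over all promoters. These are letters in a window and were not tested as sites.

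The pools held 20346024, 19549992, 8993471 and 8172362 gene UMIs. Programme cells had median depths of 7155, 7379, 8281 and 8746 UMIs and no-programme cells of 6434, 6447, 7431 and 7884, so programme cells were deeper in every pool. No barcode was shared between pools of 1 age, 14 were shared between ages, and none of these was a programme cell in both of its pools. Doublets were predicted for 5, 11, 1 and 0 programme cells and were kept. Cells that also had 2 or more UMIs of a neutrophil, nonclassical monocyte, NK cell or cDC2 marker set, called mixed-marker cells, were 14.9%, 14.97%, 9.85% and 17.2% of programme cells and 4.62%, 10.2%, 11.6% and 6.67% of no-programme cells. Xist was at 578 and 462 CPM (the UMIs of a gene per 1000000 UMIs of the summed cells) in gated cDC1 of the neonatal pools and at 1.22 and 0 in the adult pools, while the Y-linked gene Ddx3y was at 0.283 and 9.21 against 52.0 and 44.6. The pools thus differ in the sex of their mice, and age and sex cannot be told apart in any comparison between ages below.

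Programme cells made up a larger part of the cDC1 in adult lungs. They were 194 of 518 gated cDC1 (37.5%, exact 95% interval 33.3 to 41.8) and 167 of 501 (33.3%, 29.2 to 37.7) in the neonatal pools, and 132 of 205 (64.4%, 57.4 to 70.9) and 93 of 142 (65.5%, 57.1 to 73.3) in the adult pools. Both adult pools lay above both neonatal pools, with means of 64.9% ± 0.780 and 35.4% ± 2.91 (SD, n = 2) and a difference of -29.5 points, neonatal minus adult. The share follows from the values that chose the cells and is given as a description, with no test. Adult cells were sequenced more deeply, so each cell was also thinned to a fixed depth and shallower cells were left out. At 2000 UMIs the shares were 10.3%, 9.84%, 30.7% and 31.2% (of 514, 498, 199 and 138 cells), and at 5000 UMIs 27.9%, 26.9%, 54.4% and 58.6% (of 452, 439, 182 and 128 cells). The age order was the same at both depths.

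In other gated classes the share of cells with 2 or more UMIs of the 4 genes was below that of every cDC1 pool. In cDC2, with median depths of 6211 to 7659 UMIs, it was 15.6%, 14.8%, 16.7% and 17.3%. In NK cells, with medians of 2697 to 2997 UMIs, it was 0 of 34, 42, 251 and 265 cells, which allows up to 8.82%, 7.14%, 1.20% and 1.13%. Neutrophils, at 1710 to 1984 UMIs, had 2.71%, 1.096%, 0% and 0.353%. These intervals and limits cover counting error only. In cDC2 the UMIs came from Epcam, Cldn1 and Plet1, while Cd207 was at 1.51, 2.48, 2.44 and 1.37 CPM, against 20.4, 23.3, 56.3 and 116 CPM in all gated cDC1.

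The 4 genes did not enter the score in equal measure, and their order changed with age. Epcam gave 13.2% and 13.03% of the programme UMIs in neonatal cells and 37.9% and 36.2% in adult cells. Plet1 gave 35.3% and 27.2% in neonatal and 9.99% and 10.98% in adult cells, the opposite shift. Cldn1 gave 44.0%, 49.6%, 41.5% and 35.6%, and Cd207 gave 7.45%, 10.2%, 10.6% and 17.3%. For both Epcam and Plet1 the ages did not overlap. As levels, Epcam was at 78.03, 73.8, 290 and 346 CPM, Plet1 at 209, 154, 76.5 and 105, Cldn1 at 260, 281, 318 and 340, and Cd207 at 44.0, 57.8, 81.0 and 165. These values chose the cells and are given as a description, with no test.

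**Figure D1:**
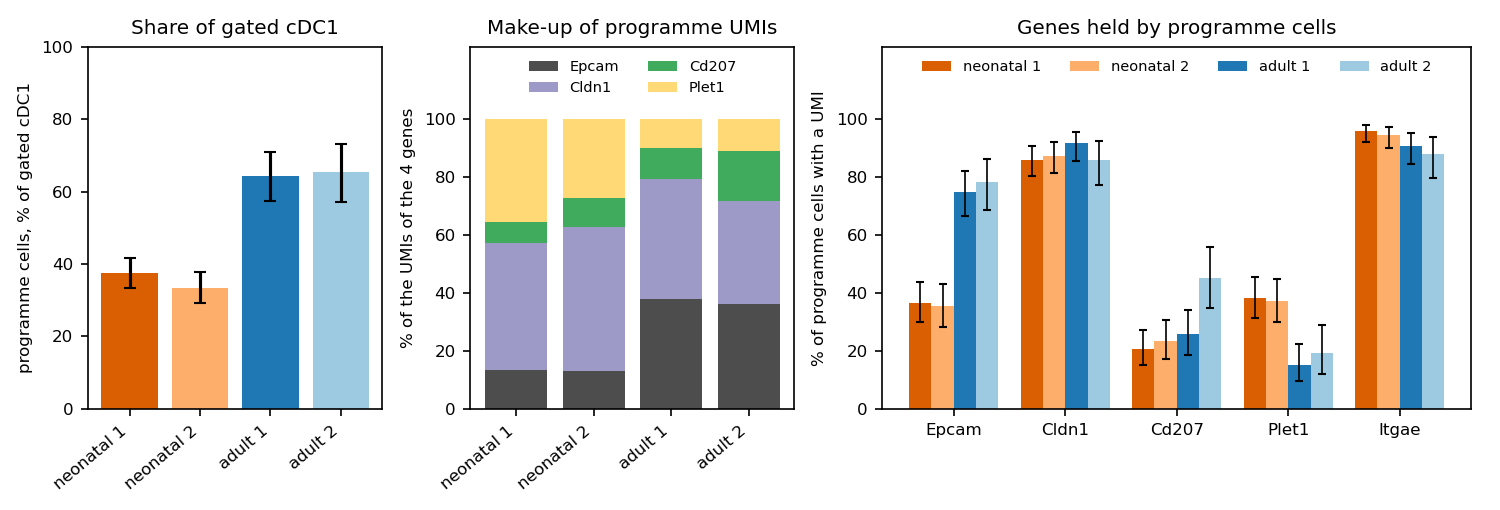
Percent of gated cDC1 that were programme cells, percent of the programme UMIs supplied by each of the 4 genes, and percent of programme cells with a UMI of each gene and Itgae, in each of the 4 pools, with exact 95% binomial intervals on the first and last. The adult shares of 64.4% and 65.5% lie above the neonatal 37.5% and 33.3%, and Epcam takes a larger and Plet1 a smaller part of the UMIs in adult pools.

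Single cells combined the genes differently at the 2 ages. Of 361 neonatal programme cells, 117 held Cldn1 alone, 57 held Cldn1 with Plet1 and 49 held Epcam with Cldn1. Of 225 adult programme cells, 30 held Cldn1 alone, 1 held Cldn1 with Plet1, 80 held Epcam with Cldn1 and 41 held Epcam, Cldn1 and Cd207. A single gene of the 4 was present in 40.4% of neonatal and 20.4% of adult programme cells. Cells with Plet1 also had Epcam in 33.8%, 37.1%, 90.0% and 100% of cases. Nearly every adult Plet1+ cell was thus also Epcam+, while most neonatal Plet1+ cells were not. All 4 genes were found in 11 neonatal and 7 adult cells. The cells were chosen by the summed UMIs of these same genes, so the combinations are a description, with no test. Adult programme cells also held more of these UMIs, with medians of 3, 3, 5 and 7, which by itself leaves fewer cells with a single gene.

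The label was checked against defining genes of cDC1 and of other cells. Programme cells kept the cDC1 genes, with Irf8 at 2199, 2379, 1661 and 1676 CPM, Batf3 at 241, 242, 191 and 165, and the adhesion gene Cadm1 at 192, 188, 148 and 159. Zbtb46 was at 82.3, 77.0, 73.8 and 62.5 CPM, and its difference from no-programme cells was 0.21 ± 0.14 on the log2 scale (SE, edgeR adjusted p = 0.617). Xcr1 was at 409, 413, 344 and 325 CPM and Clec9a at 236, 275, 217 and 216, against 469, 470, 442 and 423 and 377, 314, 312 and 321 in no-programme cells, as a description since both were in the gate. A list of 11 other Langerhans cell genes summed to 665, 893, 1473 and 1554 CPM in programme and 655, 928, 1708 and 1702 in no-programme cells. Its member Cdh1, the E-cadherin gene, was at 0 in both adult pools of either state and in neonatal pool 1 of no-programme cells. It was above 0 in both neonatal pools of programme cells. A list of 20 lung epithelial genes summed to 416, 353, 548 and 515 CPM in programme cells and 459, 425, 502 and 576 in no-programme cells. By these sums, neither list was higher in programme cells than in no-programme cells in all pools. The sums can follow single common genes and are a weak check of the label. In adult pool 2 of no-programme cells 17 of the 20 epithelial genes were at 0, leaving Scgb1a1, Hopx and Napsa. Napsa was seen in 80.8% to 93.3% of cells, by age and state. Lyz2, of the Langerhans list, was seen in 87.2% to 92.9%.

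The first comparison set programme against no-programme cells within the same 4 pools, asking which other genes differed with the 4. Of 8367 genes tested, 251 (3.00%) passed an adjusted p of 0.05, of which 145 (1.73%) were higher and 106 (1.27%) lower in programme cells. Scaling by library totals alone gave 98 higher and 145 lower, so the balance of directions depends on the scaling. Against cells with 1 UMI, in place of 0, 16 genes passed. The genes that rose included further adhesion and junction genes, genes of the TGF-beta response, receptors for dying cells and genes of MHC class II loading, while immediate early genes fell. Differences are log2 values, programme over no-programme, ± SE, from edgeR's quasi-likelihood test with Benjamini-Hochberg adjustment.

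Of 19 adhesion and junction genes tested, 5 rose (Itgae, F11r, Cldn7, Cd9 and Ctnna1) and 0 fell, with a median difference of 0.34 against 0.01 over all genes. F11r, which encodes the junctional adhesion molecule JAM-A (chromosome 1, 171437535 to 171464603), was at 34.1, 20.1, 102 and 136 CPM in programme cells and at 9.69, 9.37, 39.9 and 18.6 in no-programme cells. It was higher with the programme in each pool, and the adult no-programme pools overlapped with the neonatal programme pools. The difference was 1.75 ± 0.23 (adjusted p = 2.93e-06). Cldn7, a claudin (chromosome 11, 69964779 to 69967885), was at 9.22, 12.8, 23.7 and 32.5 against 1.62, 0.781, 6.65 and 0 CPM, a difference of 3.01 ± 0.52 (adjusted p = 0.000231) that rests on 5 UMIs in no-programme cells.

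Itgae, the CD103 integrin chain (chromosome 11, 73090583 to 73147446), was at 539, 527, 365 and 339 CPM in programme cells. In no-programme cells it was at 466, 374, 209 and 158 CPM, lower in each pool. The difference was 0.57 ± 0.10 (adjusted p = 0.00213). A UMI of Itgae was seen in 95.9%, 94.6%, 90.9% and 88.2% of programme cells, so CD103 transcripts were general in this gate. Cd9, a tetraspanin, rose by 0.34 ± 0.08 but missed the threshold without neonatal pool 1 (0.31). Ctnna1, alpha-catenin, was named after its value was seen, at 0.35 ± 0.10, and missed it without neonatal pool 1 (0.31), neonatal pool 2 (0.43) or adult pool 1 (0.35), with library totals alone (0.30), with stricter cell filters (0.33) and with 3 programme UMIs or more (0.36).

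Outside the list, Spint1, Dst, Mmp14 and Adam23 were among the genes with the largest rise. Spint1 encodes a Kunitz-type inhibitor of epithelial serine proteases (chromosome 2, 119237362 to 119249527). It was at 32.6, 36.9, 118 and 131 CPM in programme cells and 12.9, 12.5, 19.9 and 9.30 in no-programme cells. Every programme pool lay above every no-programme pool, by 2.03 ± 0.24 (adjusted p = 3.39e-07). Dst, which encodes the plakin dystonin, rose by 2.06 ± 0.28 (adjusted p = 5.38e-06), the membrane metalloprotease gene Mmp14 by 1.87 ± 0.34 (0.000375) and the disintegrin gene Adam23 by 1.64 ± 0.29 (0.000374). These 4 passed without each pool in turn.

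Of 23 genes of the TGF-beta and retinoid response 4 rose and 0 fell, with a median of 0.15. Pmepa1, which TGF-beta induces and which dampens its signal, was at 121, 97.1, 122 and 130 CPM against 75.1, 50.8, 53.2 and 23.2, and rose by 1.06 ± 0.16 (adjusted p = 3.68e-05). Runx3, a transcription factor of TGF-beta signalling that Langerhans cells need, was at 76.6, 74.6, 119 and 157 against 48.5, 50.8, 66.5 and 69.7 CPM. It rose by 0.80 ± 0.14 (adjusted p = 0.000397), and the programme pools all lay above the no-programme pools. The type I receptor gene Tgfbr1 was at 21.99, 35.3, 75.6 and 140 CPM against 16.2, 14.8, 36.6 and 9.30, a rise of 1.38 ± 0.30 (0.0223) that missed the threshold without neonatal pool 2 (1.43) or adult pool 1 (1.46). Smad7, the inhibitory Smad, rose by 0.79 ± 0.20 (0.0131) and missed it without adult pool 1 (0.73).

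Of 13 genes for uptake of dead cells, 3 rose and 0 fell. Axl, a receptor kinase that binds dying cells through Gas6, was at 16.3, 18.5, 59.2 and 82.5 CPM in programme cells and 3.23, 6.25, 36.6 and 0 in no-programme cells. The difference was 1.84 ± 0.37 (adjusted p = 0.00755), with adult pool 1 of the no-programme cells above the neonatal programme pools. Timd4, a phosphatidylserine receptor, rose by 1.11 ± 0.24 (0.00403) and missed the threshold without adult pool 2 (0.76). Lrp1, an endocytic receptor, rose by 0.90 ± 0.22 (0.0126) and missed it without adult pool 1 (0.76).

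Genes for antigen loading rose by small amounts. Of 19 MHC class II genes tested, 4 rose and 0 fell, with a median of 0.10. Of 20 class I and cross-presentation genes 0 passed with edgeR (2 at an unadjusted p under 0.05) and 0 with DESeq2. This is near the edgeR share of 3.00% over all genes and does not set the class I list apart. Ifi30, the lysosomal thiol reductase that unfolds antigen, was at 892, 770, 852 and 877 CPM against 633, 588, 492 and 586, a rise of 0.60 ± 0.07 (adjusted p = 1.38e-07) with no overlap between the states. H2-DMa, part of the peptide exchanger for class II, rose by 0.33 ± 0.05 (0.000132) and Cd74, the invariant chain, by 0.21 ± 0.04 (0.000375). H2-DMb1 rose by 0.22 ± 0.06 (0.0239) and missed the threshold without neonatal pool 1, neonatal pool 2 or adult pool 1 (0.23, 0.23 and 0.24), with library totals alone (0.16), 3 programme UMIs or more (0.19), stricter cell filters (0.20) or no mixed-marker cells (0.20). H2 genes belong to a family of close copies, so reads may be shared among them.

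Of 16 C-type and NK-type lectin genes 2 rose. Klrb1b, an inhibitory NK-type receptor, was at 105, 94.7, 158 and 205 CPM against 44.4, 67.2, 79.8 and 65.1, with a difference of 1.05 ± 0.15 (adjusted p = 8.51e-06). Klrd1, the CD94 subunit of NK receptors, was at 2.13, 11.2, 219 and 239 CPM against 2.42, 7.81, 106 and 97.6. It rose by 1.11 ± 0.19 (0.000189), but in neonatal pool 1 it was slightly lower in programme cells. A UMI of Klrd1 was seen in 1.03%, 2.40%, 75.8% and 76.3% of programme cells and 1.03%, 3.06%, 34.9% and 36.7% of no-programme cells. By cells the rise was thus seen in adult pools only. In neonatal programme cells 1 cell gave 64.7% of its UMIs. The marker list for NK and T cells summed to 7.80, 20.9, 30.0 and 27.5 CPM in programme cells and 11.3, 18.0, 53.2 and 46.5 in no-programme cells, higher with the programme in neonatal pool 2 alone. Among 13 chemokine and migration receptors 2 rose and 0 fell. Ltb4r1, the leukotriene B4 receptor, rose by 0.49 ± 0.14 (0.0372) and missed the threshold without neonatal pool 2 (0.54), adult pool 1 (0.43) or adult pool 2 (0.44), and with library totals alone (0.43). With the 1-UMI cells as comparison its sign turned, to -0.09.

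Of 26 cDC1 identity genes 2 rose and 2 fell, with a median of -0.03. Itgae, described above, and Sept3, a septin of cDC1, rose, the latter by 0.56 ± 0.09 (adjusted p = 7.82e-05). Tlr11, a receptor for microbial profilin, was at 42.6, 51.4, 16.4 and 14.99 CPM against 69.5, 85.1, 26.6 and 55.8. It fell by 0.77 ± 0.17 on the log2 scale (0.0052), and missed the threshold without neonatal pool 2 (-0.84). The lysosomal enzyme gene Ppt1 was at 572, 558, 565 and 552 CPM against 670, 693, 701 and 879, a difference of -0.30 ± 0.07 (0.00587), and missed it without neonatal pool 2 (-0.30). Cd8a, which marks lymphoid-organ cDC1, had 3 UMIs in the programme cells of all pools and 28 in the no-programme cells, a ratio of 14.01 in favour of the latter (exact 95% counting interval 4.33 to 72.0), and its adjusted p of 0.00135 was lost without neonatal pool 2 (-4.07).

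Ccnd2, Ccnd1 and Bhlhe40 also rose, and were named after their values were seen. Ccnd2, a D-type cyclin, was at 24.8, 37.7, 193 and 197 CPM against 13.7, 20.3, 89.7 and 41.8, a rise of 1.29 ± 0.18 (adjusted p = 8.16e-06). Ccnd1 rose by 0.70 ± 0.10 (6.78e-06) and Bhlhe40, a transcriptional repressor, by 1.22 ± 0.19 (0.000847). The gate requires 0 UMIs of Mki67 and Top2a in both states. Of 18 tested genes of the cycling marker list 0 passed with edgeR (3 at an unadjusted p under 0.05) and 0 with DESeq2. With edgeR 3.00% of all genes passed, and at that share 0 of 18 does not set this list apart. Tnip3, a feedback inhibitor of NF-kB, was the single called gene of 22 in its list, at 1.55 ± 0.30 (0.000869). Tcea3, an elongation factor gene, rose by 1.38 ± 0.17 (3.39e-07), mainly seen in neonatal pools at 138 and 104 CPM against 54.1 and 40.6.

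The genes that fell were led by immediate early and quiescence genes. Of 33 immediate early and dissociation genes, 8 fell and 0 rose, with a median of -0.24. The summed monocyte marker lists were also lower with the programme in each pool. The nonclassical list summed to 401, 404, 443 and 434 CPM against 464, 507, 522 and 646, with 2 of 10 tested members lower. Nr4a1, described below, is 1 of these 2. The classical list summed to 384, 491, 896 and 788 against 647, 736, 970 and 1027. Of its 6 tested members 0 passed with edgeR (2 at an unadjusted p under 0.05), against 3.00% of all genes. Its member Ccr2 was higher with the programme in both adult pools. Klf2, a factor of resting and circulating leukocytes, was at 181, 211, 299 and 279 CPM in programme cells and 380, 319, 631 and 879 in no-programme cells, with no overlap. It fell by 1.01 ± 0.11 on the log2 scale (adjusted p = 7.5e-05). Klf6 fell by 0.51 ± 0.08 (0.000132), Fos by 0.39 ± 0.05 (5.14e-06) and Nr4a1 by 0.56 ± 0.13 (0.00894), the last missing the threshold without neonatal pool 1 (-0.45), without doublets (-0.44, adjusted p = 0.0664), without mixed-marker cells (-0.32, 0.342) and without both (-0.28, 0.435). For Klf2 the adjusted p was 0.0522 with 3 programme UMIs or more. Itga4, the alpha4 integrin chain, was named after its value was seen, at 128, 154, 198 and 187 CPM against 251, 278, 299 and 544, a difference of -0.91 ± 0.11 (3.39e-07). The nuclear RNAs Malat1 and Neat1, also named afterwards, differed by -0.33 ± 0.04 (6.88e-08) and -0.68 ± 0.09 (5.38e-06).

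Among the other genes that fell most, each in all 4 pools, were Slc44a2, a choline transporter gene (-1.53 ± 0.34, adjusted p = 0.00496), Trpm2, a cation channel gene (-1.42 ± 0.23, 0.000109), Phf11a (-1.34 ± 0.18, 5.38e-06), Cldnd1 (-1.30 ± 0.22, 0.000161) and Pdia5, a protein disulfide isomerase gene (-1.24 ± 0.22, 0.000396). Phf11a was at 19.9, 28.1, 25.5 and 26.2 CPM against 59.8, 73.4, 49.9 and 74.4, so the states did not overlap and the 2 ages were alike in level. Bcl11a, a transcription factor of plasmacytoid DC and of progenitors, differed by -1.095 ± 0.25 (0.00731). Ms4a6d rose by 1.61 ± 0.25 (4.38e-05).

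**Figure D2:**
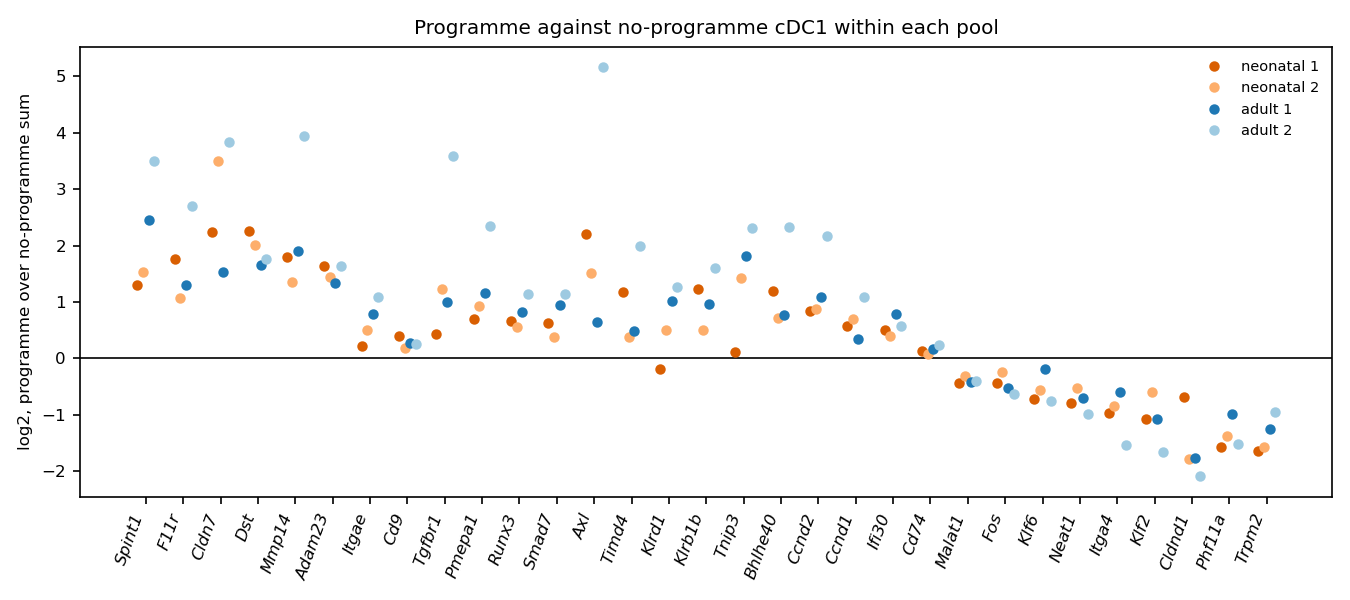
Log2 ratio of programme over no-programme sums for genes outside the rule, with 1 point per pool and a line at 0. Spint1, F11r, Pmepa1 and Runx3 lie above and Klf2 and Itga4 below 0 in each pool, and Klrd1 lies below 0 in neonatal pool 1.

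Ccl17, a chemokine of activated DC that draws Ccr4+ T cells, had the widest gap between the states but did not pass. It was at 388, 311, 1002 and 1787 CPM in programme cells and 21.0, 28.1, 120 and 18.6 in no-programme cells, 4.00 ± 0.44 higher with an adjusted p of 0.0614. The programme pools all lay above the no-programme pools. A UMI of Ccl17 was seen in 24.4% of neonatal and 52.4% of adult programme cells, against 7.93% and 15.1% of no-programme cells, where 1 cell gave 70% of the adult UMIs. The list of 22 mature DC genes, which includes Ccl17, summed to 713, 648, 1433 and 2374 CPM with and 437, 343, 499 and 284 without the programme. Of its 17 tested members 0 passed with edgeR (2 at an unadjusted p under 0.05), near the 3.00% of all genes, and 1 with DESeq2. Fscn1, a defining gene of mature DC, was at no more than 15.03 CPM at any score. Ccl22, its close neighbour, was at 7.80, 13.6, 40.97 and 175 CPM against 12.1, 12.5, 96.4 and 0.

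The levels were next followed along the summed UMIs of the 4 genes, in cells with 0, 1, 2 to 3, 4 to 7 and 8 or more. These bins come from the rule's own score, and median depth rose along them (in neonatal pool 1 from 6434 to 8064 UMIs), so they are a description. Spint1 went in adult pool 1 through 19.9, 55.3, 67.1, 88.5 and 206 CPM and in neonatal pool 1 through 12.9, 20.3, 23.7, 34.0 and 70.8. Itgae went in adult pool 2 through 158, 181, 259, 315 and 404 CPM, in neonatal pool 2 through 374, 451, 533, 521 and 518, and in neonatal pool 1 through 466, 478, 539, 547 and 523. Klf2 ran the other way, in adult pool 2 through 879, 401, 397, 348 and 162 CPM, with its largest step between 0 and 1 UMI.

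Several genes were highest in the top bin. Tgfbr1 was at 70.8, 106, 162 and 231 CPM in the 22, 19, 39 and 40 cells with 8 or more UMIs, and at no more than 66.8 CPM in any lower bin of any pool. Ccnd2 was at 59.9, 124.9, 353 and 312 CPM in the top bin, and Runx3 at 114, 112, 162 and 217. Ccl17 was at 1959, 1673, 1808 and 3002 CPM there, with adult pool 1 between the neonatal pools and adult pool 2 above them. The mature DC list without Ccl17 was at 593, 525, 556 and 721 CPM in the top bin and 416, 315, 379 and 265 in cells with 0.

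**Figure D3:**
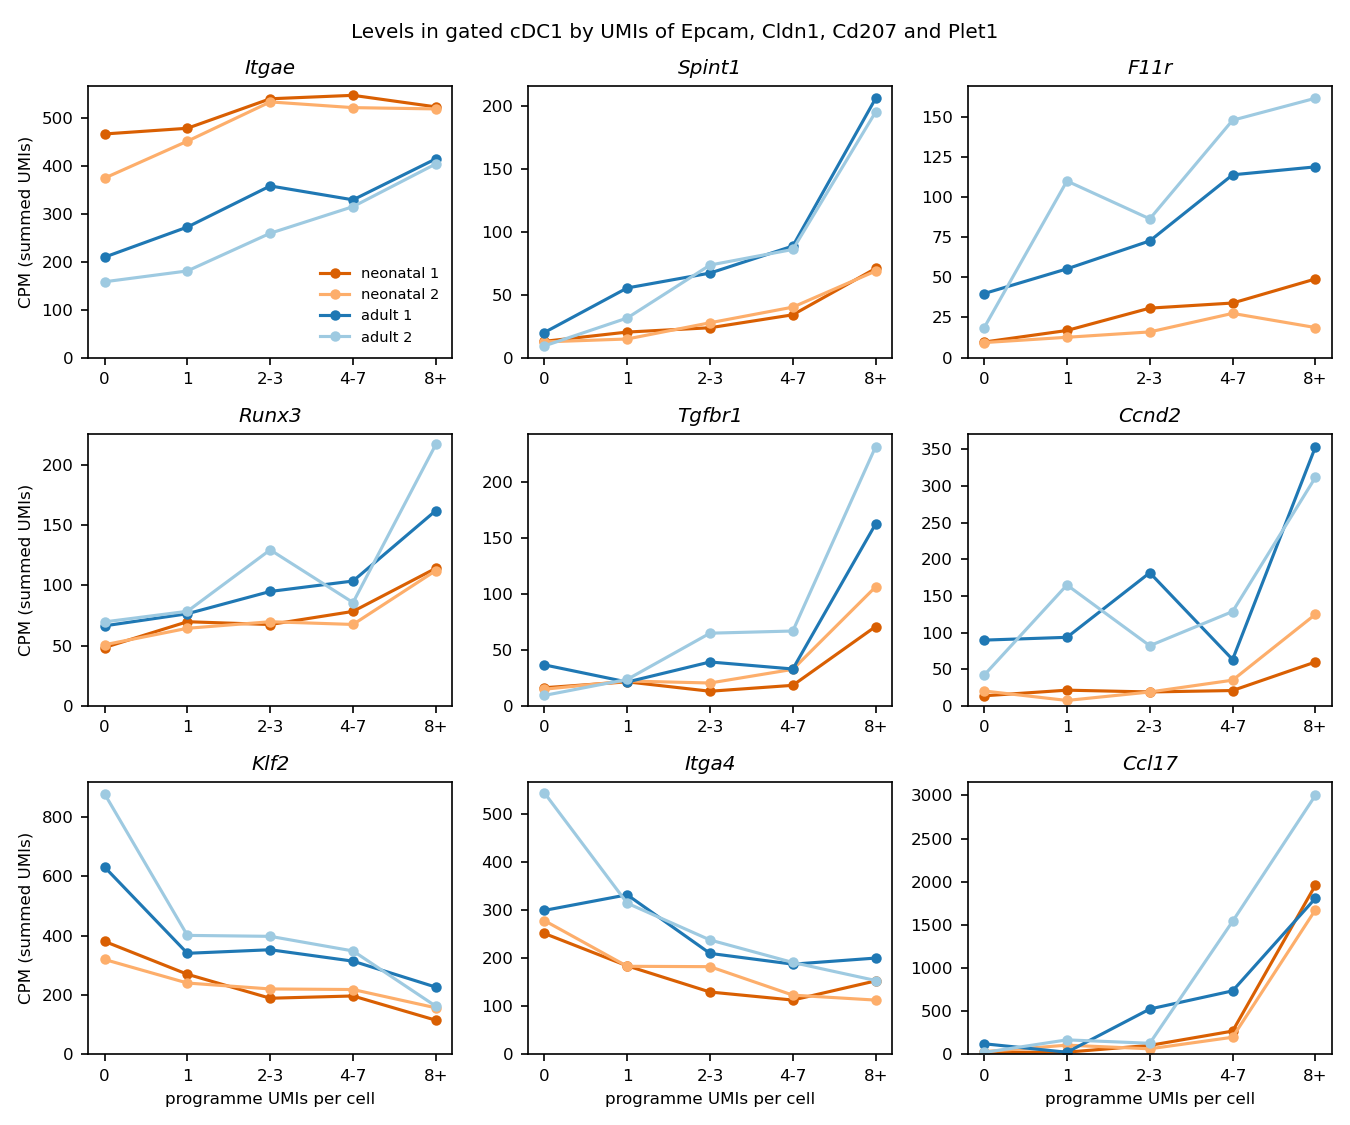
Levels in CPM of chosen genes in gated cDC1 grouped by the summed UMIs of Epcam, Cldn1, Cd207 and Plet1 (0, 1, 2 to 3, 4 to 7, 8 or more), with 1 line per pool. Spint1 and Ccl17 are highest and Klf2 lowest in the top bin of each of the 4 pools, and Itgae is lowest in cells with 0 in each pool.

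Which of the 4 genes a cell held went with different levels of other genes. Cells with both Epcam and Plet1 (25, 23, 18 and 18 cells) had Ccl17 at 765, 1057, 3653 and 4676 CPM, against 114, 369, 651 and 926 in cells with Epcam and no Plet1 (46, 36, 81 and 55 cells). In each pool the cells with both were higher. In adult pools, cells with both also had Tgfbr1 at 193 and 381 CPM against 67.4 and 84.9, Ccnd2 at 464 and 535 against 152 and 120, and Axl at 155 and 181 against 42.5 and 62.1. Neonatal cells with Plet1 and no Epcam (49 and 39 cells) had Ccnd2 at 52.1 and 69.4 CPM, above the 9.23 and 32.5 of neonatal cells with Epcam and no Plet1. The adult pools held 2 and 0 cells with Plet1 and no Epcam, too few to compare. Cldn7 was highest in neonatal cells with Epcam and no Plet1, at 21.5 and 32.5 CPM, against 5.49 and 3.15 with Plet1 and no Epcam. Cells with both genes also had more programme UMIs by construction, and these levels are a description, with no test.

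**Figure D4:**
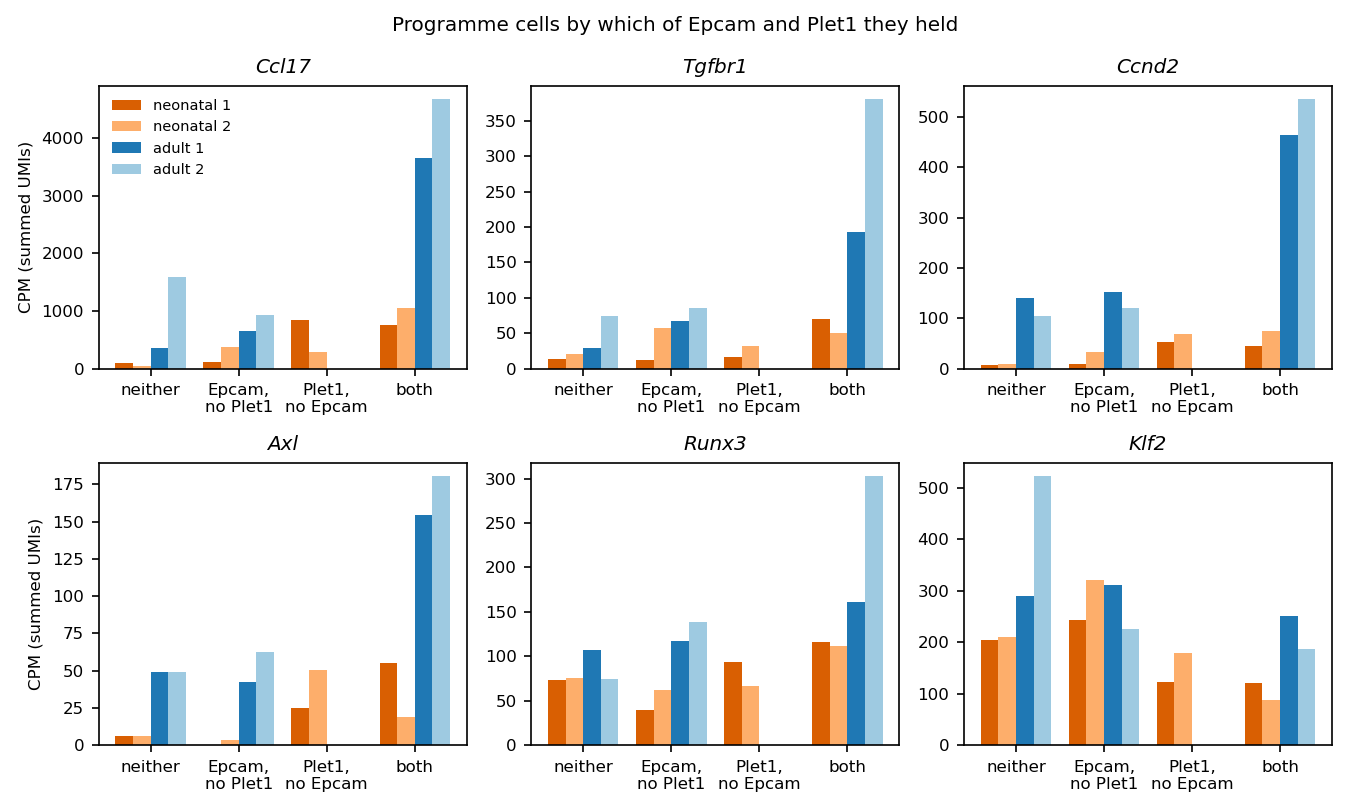
Levels in CPM of chosen genes in programme cells split by whether they held Epcam and Plet1, with 1 bar per pool and no error bars, bars of under 10 cells left out. Ccl17, Tgfbr1 and Ccnd2 are highest in the adult cells that held both, and Klf2 is lowest in the neonatal cells that held both.

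The second comparison set neonatal against adult programme cells. Of 7629 genes tested, 1084 (14.2%) passed an adjusted p of 0.05, of which 447 (5.86%) were higher in neonatal and 637 (8.35%) in adult cells. Scaling by library totals alone gave 613 and 540, so this balance also depends on the scaling. Adult programme cells had more transcripts for junctions, TGF-beta signalling, dead-cell uptake, MHC class II and NK-type receptors, and neonatal ones more for cDC1 identity genes, oxidative phosphorylation and RNA-binding proteins of fetal growth. Differences are log2 values, neonatal over adult, ± SE, by the same edgeR test, so a negative value means higher in adult cells. For key genes the same difference in no-programme cells stands beside it.

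Of 18 adhesion and junction genes tested, 8 were higher in adult and 1 in neonatal programme cells, with a median of -0.65 against 0.00 over all genes. F11r was at 34.1 and 20.1 CPM in neonatal and 102 and 136 in adult cells, -2.16 ± 0.20 (adjusted p = 6.77e-13), and -1.69 ± 0.53 in no-programme cells. Pcdh7, a protocadherin gene (chromosome 5, 57717967 to 58133230), had 0 UMIs in both neonatal pools and 76.5 and 78.7 CPM in adult ones. It was at least 68.5-fold higher in adult programme cells, with the neonatal level set to 3 counts over both pools. In no-programme cells Pcdh7 was at 0.808 and 0.781 against 43.2 and 41.8 CPM. Emp1, a tetraspan membrane protein gene, had 2 neonatal and 102 adult UMIs, a ratio of 71.3 (exact 95% counting interval 19.2 to 597). Cd81, a tetraspanin, differed by -1.40 ± 0.10 (7.9e-20), and Itgb7, the beta chain that pairs with CD103 and named after its value was seen, by -0.70 ± 0.10 (2.96e-08). Cldn7, also named afterwards, differed by -1.39 ± 0.35 (0.00213) and missed the threshold without neonatal pool 1 (-1.16) and with 3 programme UMIs or more (-1.03).

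Itgae was the single junction gene higher in neonatal programme cells, at 539 and 527 against 365 and 339 CPM. The difference was 0.53 ± 0.09 (adjusted p = 1.35e-06), and it was 1.16 ± 0.17 in no-programme cells. CD103 and its beta chain thus differed in opposite directions between the ages. Spint1 and Dst, which rose with the programme at both ages, were higher in adult programme cells by -1.90 ± 0.17 (7.77e-15) and -2.10 ± 0.23 (8.85e-12), both named afterwards in this comparison.

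Of 23 TGF-beta and retinoid response genes, 7 were higher in adult and 2 in neonatal cells, with a median of -0.50. Tgfbr1 was at 21.99 and 35.3 against 75.6 and 140 CPM, -1.94 ± 0.38 (adjusted p = 0.023), named afterwards, with an adjusted p of 0.052 under stricter cell filters. Smad7 differed by -1.33 ± 0.20 (1.9e-07). The Runx genes differed in opposite directions. Runx3 was at 76.6 and 74.6 against 119 and 157 CPM, -0.91 ± 0.15 (1.06e-06). Runx1, a factor of early blood development, was at 155 and 147 against 42.8 and 61.2 CPM, 1.504 ± 0.16 (3.28e-12). Neither gene overlapped between the ages. In no-programme cells Runx1 differed by 0.53 ± 0.22 and Runx3 by -0.46 ± 0.29, and the interaction of age and state did not pass for either (adjusted p = 0.142 and 0.858).

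Of 25 cDC1 identity genes tested, 11 were higher in neonatal and 2 in adult cells, with a median of 0.25. Irf8 differed by 0.39 ± 0.05 (adjusted p = 3.7e-09), Naaa, a lysosomal amidase of cDC1, by 0.54 ± 0.05 (7.27e-13), and Tlr12, partner of Tlr11 in sensing profilin, by 2.34 ± 0.32 (2.55e-08). Batf3, named afterwards, differed by 0.36 ± 0.11 (0.0147) and missed the threshold without neonatal pool 1 (0.36), neonatal pool 2 (0.36) or adult pool 2 (0.27). The genes higher in adult cells were Hepacam2, an adhesion protein gene, at -0.86 ± 0.11 (6.45e-09), and Cd36, a scavenger receptor gene, at -0.46 ± 0.11 (0.000662), the latter named afterwards and missing it without neonatal pool 1 (-0.38).

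Genes for uptake and presentation were mostly higher in adult programme cells. Of 12 dead-cell uptake genes 7 were higher in adult and 0 in neonatal cells. Timd4 was at 17.0 and 7.22 CPM in neonatal and 104 and 139 in adult cells, -3.32 ± 0.24 (adjusted p = 1.76e-16), and -3.11 ± 0.48 in no-programme cells. Axl differed by -2.06 ± 0.24 (7.67e-11). Of 16 MHC class II genes 10 were higher in adult cells, and Cd74 (-0.61 ± 0.03, 4.55e-25), H2-Eb1 (-0.62 ± 0.04, 8.21e-23) and H2-Ab1 (-0.47 ± 0.04, 1.48e-17) were among them. The cDC2 marker list, which holds Ccr2, S100a4 and Clec4b1 described below, summed to 1157, 1352, 2654 and 2698 CPM, higher in adult pools. In no-programme cells it summed to 1129, 1421, 2639 and 2603 CPM. Its members were split, with 5 of 13 tested higher in neonatal and 4 in adult programme cells, and a median of 0.28. The part of this list was not tested. Among class II genes the exception was Ciita, the class II transactivator that drives them, named afterwards. It was higher in neonatal cells at 287 and 286 against 201 and 170 CPM (0.55 ± 0.11, 6.14e-05). Class I and cross-presentation genes gave 6 higher in adult and 2 in neonatal cells of 20, which became 5 and 5 with library totals alone. H2-D1 differed by -0.80 ± 0.06 (8.63e-20) and B2m by -0.64 ± 0.06 (5.86e-14), while Rab43, a small GTPase of cross-presentation named afterwards, differed by 0.73 ± 0.10 (5.9e-09).

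Of 13 lectin genes 8 were higher in adult and 3 in neonatal cells. Klrd1 was at 2.13 and 11.2 against 219 and 239 CPM, -5.19 ± 0.23 (adjusted p = 4.52e-22), and -4.28 ± 0.40 in no-programme cells. Klrk1, the NKG2D receptor gene, was at 4.97 and 7.22 against 91.0 and 96.2 CPM, -4.00 ± 0.27 (1.43e-20), and -1.35 ± 0.29 in no-programme cells. NK cells of the same pools had Klrd1 at 943, 1037, 1217 and 1298 CPM and were more numerous in adult pools, at 34, 42, 251 and 265 cells. With mixed-marker cells left out, which removes cells with 2 or more UMIs of Ncr1 and Klrb1c, the difference was -6.60 for Klrd1 and -4.24 for Klrk1, and both passed. Clec4b1 (-3.89 ± 0.41, 2.77e-12) and Cd226 (-3.78 ± 0.37, 1.66e-13), an adhesion receptor gene of NK and T cells, were also higher in adult cells.

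Among receptors for migration, Ccr2, the receptor for Ccl2, was at 312 and 293 against 863 and 750 CPM, -1.49 ± 0.08 (adjusted p = 4.55e-25). Ltb4r1 differed by -2.41 ± 0.14 (2.55e-23) and Gpr183, the oxysterol receptor, by -2.26 ± 0.22 (3.46e-13). In all, 5 of 12 such genes were higher in adult and 3 in neonatal cells. Of 13 costimulation and coinhibition genes, 6 were higher in adult cells, Cd86 among them at -0.51 ± 0.11 (0.000257). The exception, Sirpa, an inhibitory receptor gene of cDC2, was at 14.9 and 22.5 against 2.73 and 1.25 CPM, 3.00 ± 0.57 (4.29e-05).

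Stress and feedback genes were higher in adult programme cells. Of 32 immediate early and dissociation genes, 17 were higher in adult and 1, Cebpb, in neonatal cells, with a median of -0.55. Btg2 differed by -0.78 ± 0.06 (adjusted p = 7.91e-19) and Zfp36, an mRNA decay factor, by -0.87 ± 0.08 (2.38e-15). Of 22 NF-kB genes 8 were higher in adult and 0 in neonatal cells. Nfkbia, the main NF-kB inhibitor, differed by -1.23 ± 0.11 (5.03e-15) and Tnip3 by -3.66 ± 0.25 (5.08e-20).

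Neonatal programme cells carried more transcripts of respiration and of fetal-type regulators. Of 60 oxidative phosphorylation genes, 31 were higher in neonatal and 0 in adult cells, with a median of 0.35, and 39 and 0 with library totals alone. Ndufa4, a respiratory chain subunit gene, was at 377 and 354 against 154 and 140 CPM, 1.24 ± 0.11 (adjusted p = 1.05e-15), and Cox8a differed by 0.61 ± 0.07 (5.93e-10). Of 6 fetal growth and RNA-binding genes 5 were higher in neonatal and 0 in adult cells. Igf2bp3, a fetal mRNA-binding protein gene, had 82 UMIs in neonatal and 3 in adult programme cells, a ratio of 19.5 (counting interval 6.46 to 96.7). The age difference was also seen without the programme. A UMI of Igf2bp3 was in 18.0% of neonatal and 1.33% of adult programme cells, and in 22.8% and 1.37% of no-programme cells. Khdrbs3, an RNA-binding protein gene, had a ratio of 65.1 (11.4 to 2597) over 1 adult UMI. Arid3a, a factor of fetal lymphocytes, differed by 1.26 ± 0.22 (7.83e-06) and Elavl4, an RNA-binding protein gene, by 2.58 ± 0.36 (1.01e-07). In the interaction of age and state, 0 of 60 oxidative phosphorylation and 0 of 7 fetal growth genes passed with edgeR, against 0.502% of all genes. At that share, lists of this size cannot tell whether the age difference depends on the state. In each list 2 genes had an unadjusted p under 0.05.

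The list of neonatal kinase and cytoskeleton genes was chosen with earlier results of these data known, so its counts are a description. Of its 27 tested genes 10 were higher in neonatal and 11 in adult cells, against 5.86% and 8.35% of all genes. Dapk2, a death-associated kinase gene, was at 22.7 and 24.1 CPM in neonatal and at 0 in adult pools, at least 14.8-fold higher with the adult level set to 3 counts over both pools. Yes1, a Src-family kinase gene, had a ratio of 42.2 (7.28 to 1694) over 1 adult UMI. In no-programme cells a UMI of Dapk2 was seen in 15.6% of neonatal and 2.74% of adult cells, and of Yes1 in 14.1% and 1.37%. Tcea3 was at 138 and 104 against 1.82 and 7.497 CPM, 4.75 ± 0.31 (adjusted p = 2.65e-18), and Lgals1, galectin-1, at 637 and 676 against 155 and 181, 1.91 ± 0.10 (6.12e-27). Chchd10 (3.28 ± 0.42, 2.03e-09), Rhoh (3.53 ± 0.55, 1.06e-06) and the fatty acid binding protein gene Fabp5 (3.84 ± 0.50, 3.46e-09) were also higher in neonatal cells. On the adult side, Pdlim1 differed by -4.47 ± 0.26 (1.62e-23), and the calcium-binding S100a4 by -3.42 ± 0.16 (1.58e-28) and S100a6 by -3.56 ± 0.25 (0.00561), the last named afterwards.

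The remaining adult genes with the widest differences were Pir, an iron-binding protein gene (-4.99 ± 0.45, adjusted p = 4.93e-15), Barx2, a homeobox gene (-3.90 ± 0.48, 7.12e-08), and Spp1, osteopontin (-3.68 ± 0.46, 1.62e-09). Pir was at 2.13 and 0.802 CPM in neonatal and 51.0 and 46.2 in adult programme cells, and at 2.42, 0.781, 16.6 and 9.30 in no-programme cells. Ccnd2 and Klrb1b, named afterwards here, were higher in adult programme cells at -2.72 ± 0.16 (1.62e-23) and -0.91 ± 0.13 (1.05e-07). Cxcl9, an interferon-induced chemokine, had 105 UMIs in neonatal and 0 in adult programme cells, at least 25.02-fold higher in the former. Among these 105 UMIs 1 cell gave 45.7%.

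**Figure D5:**
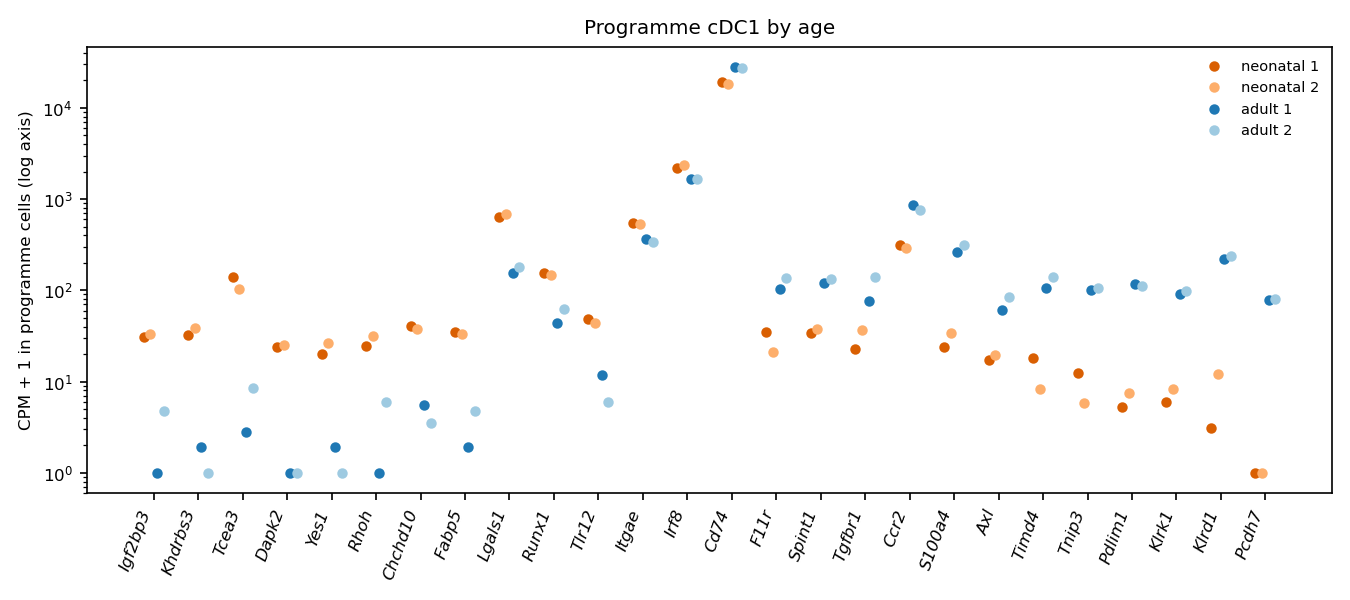
Levels in CPM plus 1 (log axis) of genes in programme cells, with 1 point for each of the 2 neonatal and 2 adult pools. Klrd1, Timd4 and F11r are higher in adult pools, and Runx1, Tcea3 and Itgae in neonatal pools.

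Whether the state difference itself changed with age was tested as an interaction over the same 8 sums. Of 8367 genes 42 (0.502%) passed an adjusted p of 0.05, 21 in each direction, and 3 of them, Apoe, Id3 and Klrk1, passed without each pool in turn. Apoe did not hold in other settings: it was 1.81 (adjusted p = 0.609) with doublets and mixed-marker cells left out and 3.64 (0.887) with stricter cell filters. Without neonatal pool 2 the count was 12, without neonatal pool 1 20, and without adult pool 1 80. The adult no-programme sums held only 43 and 30 cells, and the neutrophil list summed to 2233 CPM in those of adult pool 1, against 65.1 to 375 CPM in the other sums, with Ly6g at 0 in all. Klrk1 was at 4.97, 7.22, 91.0 and 96.2 CPM in programme cells and 35.5, 34.4, 93.1 and 83.7 in no-programme cells. The programme cells were thus lower in both neonatal pools (-2.47 ± 0.34), with 0.16 ± 0.25 in adult pools, and the difference between ages was -2.63 ± 0.43 (edgeR adjusted p = 8.9e-07). Id3, an inhibitor of E-protein transcription factors, was at 2.13, 8.02, 15.5 and 31.2 CPM against 77.5, 102, 13.3 and 93.0, with state differences of -4.11 ± 0.29 in neonatal and -0.96 ± 0.39 in adult pools (interaction adjusted p = 1.46e-06). Apoe, a lipid carrier gene abundant in macrophages, was at 53.2, 109, 8.19 and 3.75 CPM against 87.2, 92.9, 163 and 181, and 1 cell gave 48.9% of its UMIs in adult no-programme cells. The macrophage list, of which Apoe is a member, summed to 301, 349, 316 and 266 CPM in programme and 283, 301, 475 and 418 in no-programme cells, and the Apoe difference without mixed-marker cells alone was 4.47.

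For 3 genes that rose or fell with the programme the interaction did not pass. For Itgae the difference of the state effects was -0.63 ± 0.18, neonatal minus adult (edgeR adjusted p = 0.0924), for Spint1 -1.61 ± 0.56 (0.27) and for Klf2 0.45 ± 0.16 (0.273). A p above the threshold does not show that the ages were alike, and the SE of these differences allows changes of more than 1 log2 unit for Spint1. Ccr2, higher in adult programme cells, passed the interaction test at -0.70 ± 0.14 (adjusted p = 0.000346) and missed the threshold without neonatal pool 1 (-0.69) or neonatal pool 2 (-0.71). It was at 312, 293, 863 and 750 CPM in programme and 389, 358, 641 and 651 in no-programme cells. In neonatal pools it was lower and in adult pools higher with the programme.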

How the data were processed

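UMI counts per gene and barcode, deposited by the authors as 1 matrix for both ages, were made with Cell Ranger 6.1.2 and mm10, with Seurat 4.2.0 also named, per the submitters' processing notes. The barcode suffix gave age and pool. The members and gene lists were chosen with earlier results of these data known. Barcodes needed 500 genes, 1000 UMIs and at most 10% mitochondrial UMIs. Counts were summed per pool and state, filtered by filterByExpr, scaled by TMM and tested with edgeR 4.0.16 (quasi-likelihood, robust, R 4.3.3) with Benjamini-Hochberg adjustment at 0.05. Age used the 4 programme sums. State and its interaction with age used 8 sums with the pool as block. Genes of the rule were not tested. Scrublet (scanpy 1.11.5, Python 3.11.15) predicted doublets per age.

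Named genes were, per comparison, the 10 with the largest change in each direction among those called with at least 20 CPM in the higher group and no overlap of pools (for state, 1 sign in all 4 pools). Rule genes and uncharacterised, haemoglobin, sex-linked, immunoglobulin, T cell receptor, ribosomal and mitochondrial genes were left out of these. Up to 4 members of each list with the smallest p, and Itgae, Zbtb46, Pcdh7, Klrd1 and Igf2bp3, were added, and the text prints a part. Others are stated as named after their values were seen. Folds against groups at 0 used 3 counts as floor. Between 2 groups, with 1 to 3 counts in 1 of them, exact 95% counting intervals stand in place of fitted values. Interactions are fitted values, which depend on the prior count where a sum is near 0. Alternatives were DESeq2 1.42.0, other scalings and low-count filters, other gates, thinning to 2000 UMIs, cells left out and each pool left out; thinning to 5000 UMIs and leaving out doublets and mixed-marker cells together were chosen after seeing the data. Promoters came from RefSeq (GRCm38.p6), and gene positions from GENCODE on GRCm38.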

Additional observations from a re-analysis of the deposited data

Results flagged for a closer look

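For 42 genes the difference between programme and no-programme cells was itself different between the ages, by the interaction test of edgeR with Benjamini-Hochberg adjustment. Described here are 21 of them, the 10 largest in each direction by the naming rule with Ccr2 added. Values are log2, neonatal minus adult state difference, ± SE. Apoe (4.49 ± 0.37, adjusted p = 6e-29), Id3 (-3.15 ± 0.52, 1.46e-06) and Klrk1 (-2.63 ± 0.43, 8.9e-07) passed without each pool in turn, and the other 18 missed the threshold, or turned sign, without at least 1 pool. Apoe was no longer called with doublets and mixed-marker cells left out (1.81, adjusted p = 0.609) or with stricter cell filters (3.64, 0.887). Leaving out doublets alone ended the calls of Mgl2 (0.25), Fyb (1.34) and Dapk1 (-1.27). Leaving out mixed-marker cells alone ended those of Cebpb (2.25, adjusted p = 0.0834), Plac8 (2.13, 0.904), Fyb (1.11) and Sema4d (-1.28). Leaving out both ended those of Apoe, Cebpb (1.47, 0.768), Fyb (0.93), Dnase1l3 (1.28), S100a4 (-1.57), Sema4d (-1.24) and Dapk1 (-1.41).

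Several of these are known from neutrophils and other myeloid cells. Cxcl9 gave 9.51 ± 1.62 (3.41e-06; 8.94 and not called without adult pool 2), on 105 neonatal and 0 adult UMIs in programme cells and 12 and 6 in no-programme cells, so the fitted size is no bound. A single cell held 45.7% of its neonatal programme UMIs. Osm, a cytokine gene with 1 UMI in adult programme cells, gave 6.53 ± 1.32 (0.000346), Hdc, the histamine-forming enzyme, 5.20 ± 1.00 (9.65e-05), and the transcription factor Cebpb 2.91 ± 0.40 (7.31e-10). All 3 missed the threshold without adult pool 1 (6.20, 2.28 and 1.70), whose no-programme cells had the neutrophil list at 2233 CPM. Osm also missed it without neonatal pool 1 (6.68) or neonatal pool 2 (6.08), and Hdc without neonatal pool 2 (2.41). Mgl2, a lectin of cDC2, gave 4.18 ± 0.65 (2.85e-07) and turned to -3.81 without adult pool 1, where 1 cell held 93.3% of its adult no-programme UMIs.

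Nedd4, a ubiquitin ligase gene, had 37 neonatal and 0 adult UMIs in programme cells and 52 and 12 in no-programme cells. It gave 6.91 ± 1.46 (0.000761), a fitted size that is no bound, and missed the threshold without neonatal pool 2 (6.31) or adult pool 2 (4.36). Plac8 was at 46.8, 144, 20.03 and 26.2 CPM in programme and 236, 309, 253 and 335 in no-programme cells, in the pool order of the report, and gave 2.00 ± 0.28 (3.52e-09; 1.26 without neonatal pool 2). It was lower with the programme in all 4 pools. Dnase1l3, a secreted nuclease gene, was at 140, 135, 26.4 and 37.5 against 120, 110, 86.4 and 97.6 CPM and gave 1.74 ± 0.32 (3.81e-05; 1.52 without adult pool 1). Fyb, an adaptor gene, gave 1.78 ± 0.37 (0.000513; 1.42 without neonatal pool 1 and 1.59 without adult pool 1).

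In the other direction, the state difference was larger in adult cells for Zmynd15, at 118, 115, 81.0 and 86.2 CPM against 37.2, 48.4, 3.32 and 0 (-3.95 ± 0.84, 0.00111; -3.19 without adult pool 2), a fit that rests on 1 UMI in adult no-programme cells. Cxcl16, a membrane-bound chemokine gene, was at 198, 181, 307 and 340 against 132, 156, 126 and 60.4 CPM (-1.38 ± 0.24, 7.84e-06; -1.23 without neonatal pool 2 and -0.96 without adult pool 2). Bcl2a1b, a survival gene of a family of close copies, was at 482, 490, 411 and 451 against 413, 379, 226 and 79.0 CPM (-1.16 ± 0.19, 2.59e-06; -0.64 without adult pool 2). For Zmynd15, Cxcl16 and Bcl2a1b the programme cells were higher in all 4 pools.

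S100a4 gave -1.52 ± 0.28 (3.95e-05; -1.02 without neonatal pool 2), S100a6 -0.87 ± 0.17 (0.000175; -0.87, -0.90 and -0.67 without neonatal pool 1, neonatal pool 2 and adult pool 2) and Ctsh, a cathepsin gene, -1.17 ± 0.23 (0.000132; -0.94 without neonatal pool 1). Sema4d gave -1.33 ± 0.33 (0.0169; -1.06, -1.58 and -0.82 without neonatal pool 1, neonatal pool 2 and adult pool 1) and Dapk1 -1.28 ± 0.33 (0.0278; -1.28, -1.31 and -0.95 without neonatal pool 1, neonatal pool 2 and adult pool 2). Ccr2 gave -0.70 ± 0.14 (0.000346; -0.69 and -0.71 without neonatal pool 1 and neonatal pool 2).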

How the results depend on the processing

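The age difference of the share kept its sign under all settings tried, and was -17.3 points with 1 UMI or more and -20.8 points after thinning to 2000 UMIs. Genes called by age, 1084 in the main test, were 336 with DESeq2, 663 with 3 programme UMIs or more, 287 after thinning to 2000 UMIs and 678 to 5000, and 725 to 859 with 1 pool left out. Genes called by state, 251 in the main test, were 69 with DESeq2, 90 and 152 after thinning to 2000 and 5000 UMIs, 16 against cells with 1 UMI, 149 in adult pools only, and 172 to 286 with 1 pool left out. Of the 251, 91 were called in all 4 fits with 1 pool left out. The 42 interaction calls became 2 with DESeq2, 19 with 3 programme UMIs or more, 24 with stricter cell filters, 23 without mixed-marker cells, 18 without these and doublets, 8 and 14 after thinning to 2000 and 5000 UMIs, and 12 to 80 with 1 pool left out. The cause of these changes was not tested, beyond the fewer cells or UMIs that some settings leave. Signs turned for Ltb4r1 by state (-0.089 against cells with 1 UMI) and for Mgl2 in the interaction (-3.81 to 5.04 with 1 pool left out). Pool numbers do not pair the ages (correlation of deviations 0.00229 over 7635 genes): a replicate block by number gave 1005 calls by age. The states share pools by design, and without that replicate block 274 genes were called by state and 11 for the interaction. Apoe (adjusted p = 0.104) and Id3 (0.716) were not among the latter. Of the 46 genes named for state, 37 missed the threshold against cells with 1 UMI, 17 with DESeq2, 16 after thinning to 2000 UMIs and 8 to 5000. Ages had 2 pools each, adult no-programme sums held few cells, and age, sex and loading channel cannot be told apart.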

Other observations

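Klrd1, which by cells rose with the programme in adult pools only and was far higher in adult cDC1, was not limited to cDC1. A UMI of it was seen in 1.16%, 2.79%, 65.9% and 67.6% of all gated cDC1, in the pool order of the report, and in 30.7%, 32.0%, 60.5% and 56.1% of cDC2. In NK cells, where the gene is best known, it was seen in 85.3%, 88.1%, 94.0% and 94.0%, at lower depth. Neonatal cDC1 thus stood below neonatal cDC2, while the adult classes were close. Pcdh7 was seen in 0.193%, 0.200%, 36.1% and 39.4% of gated cDC1 and in 0%, 0%, 4.39% and 3.06% of cDC2, and in 0 of the NK cells of each pool. Mature DC, which the gate leaves out, held 2 or more programme UMIs in 1.34%, 1.00%, 2.02% and 12.1% of cells. These values were not tested.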
